A study of Mus musculus with 6 samples.

Results

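The genes described here are 39 components of the lysosome and of autophagy, chosen by name, out of 51826 genes measured in each library. They comprise 7 proteases, 7 glycosidases, 4 sulfatases, 3 lipid hydrolases, 3 soluble cofactors, 7 membrane proteins, 3 subunits of the vacuolar proton pump (V-ATPase), 4 autophagy genes and the transcription factor Tfeb. All 39 were found in the files by Ensembl number, and all 39 passed the filter on low counts, with between 95 and 12570 expected counts per gene and library. Messenger RNA was sequenced from cultured mouse embryonic fibroblasts (MEFs) of C57BL/6 stock, which are connective-tissue cells taken from embryos, at passages 2 to 5. There were 3 cultures heterozygous for Lztr1 (Lztr1 +/-), numbered 11, 15 and 18, and 3 wild-type cultures (Lztr1 +/+), numbered 10, 12 and 16. The labels name no treatment, and they do not say how the mutant allele was built or whether each culture came from its own embryo, so a p-value here reflects the spread of these cultures only, and that spread may be technical.

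Lysosomes are acidic compartments in which proteins, sugars, sulfated chains and lipids are broken down by hydrolases. Most of these enzymes are soluble and work inside the lumen, while heavily glycosylated membrane proteins line the inner face of the membrane and the V-ATPase pumps in protons. Autophagy delivers cytoplasm to lysosomes in vesicles marked by lipidated LC3 and GABARAP proteins. TFEB and its relatives switch on many lysosomal and autophagy genes by binding an E-box-like element, the CLEAR element, in their promoters. LZTR1, the product of the gene mutated here, brings RAS-family proteins to a ubiquitin ligase built on CUL3.

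The CLEAR core, the palindrome CACGTG, was searched in RefSeq promoter sequences of build GRCm38.p6, which run from 250 bases before to 50 bases after the annotated start. Sequences were found for 33 of the 39 genes. The core was present in 10 of the 33 (30.3%), against 8.09% of the 27025 genes with a promoter sequence. With the flanking T that TFEB sites usually carry (TCACGTG, read on both strands and overlapping the core), the share was 9 of 33 genes (27.3%), against 4.29%. The palindrome TCACGTGA was in 6 of 33 (18.2%), against 1.12% of all genes. With a further G before and C after it, the full CLEAR palindrome, it was in 0 of 33, against 0.37% of all genes. The element is known from promoters of lysosomal genes, so a higher share among them was given in advance and is no result of these cultures. The 27025 genes were also not limited to those expressed here. The stretches below were chosen among the genes that held the core. They belong to the gene with the most cores (Lamp1) and to genes that code for ion transport (Mcoln1, Atp6v1a). Ctsa, Gaa and Arsa are shown because the comparison of genotypes takes them up. Grn, which it takes up as well, held no core in this window. Capitals mark the core, and each stretch is read on the strand of its gene.
Lamp1, chr8:13159090-13159160, plus strand: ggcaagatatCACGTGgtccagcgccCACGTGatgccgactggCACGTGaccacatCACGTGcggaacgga
Ctsa, chr2:164833751-164833776, plus strand: agcaaactgtCACGTGatgcagatgc
Gaa, chr11:119267813-119267838, plus strand: tctgtgcgatCACGTGtttgactctg
Arsa, chr15:89477425-89477450, minus strand: aactcagtgtCACGTGttgtctgctc
Mcoln1, chr8:3500464-3500489, plus strand: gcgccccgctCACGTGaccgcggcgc
Atp6v1a, chr16:44139375-44139400, minus strand: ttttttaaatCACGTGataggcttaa

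Lamp1 held 4 cores within the 71 bases before its start. These starts are RefSeq's and can lie inside the longer gene spans given further on. The core shown for Ctsa began 12 bases before the start, that of Gaa 140 bases, that of Arsa 16 bases, that of Mcoln1 45 bases and that of Atp6v1a 131 bases. Ctsd, Gla, Ctsl and Atp6v0d1 held the core as well. Ctsa, Mcoln1, Ctsd and Gla each held more than 1. A match is a run of letters and not a measured binding site.

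Library totals ranged from 11028854 to 21885101 expected counts in heterozygous and from 11025286 to 14030349 in wild-type cultures. Lztr1 measured 45.9, 45.1 and 43.8 CPM (counts scaled by library total and composition factor) in heterozygous cultures 11, 15 and 18, against 93.9, 94.1 and 83.2 CPM in wild-type cultures 10, 12 and 16, so it matched the genotype label in all 6. All 12 fibroblast markers examined were above 0 in every library, between 30.4 and 4050 TPM (a unit that corrects for gene length). All 18 macrophage markers were also above 0 in every library, summing to 364.4 to 654.5 TPM in heterozygous and 462 to 594.8 TPM in wild-type cultures. Macrophages are rich in lysosomes, and in RNA from a whole culture fewer cells of a type and less RNA per cell cannot be told apart. Over all genes wild-type culture 16 stood apart from wild-type cultures 10 and 12, at a root mean square log2 difference of 0.466 and 0.498. Cultures 10 and 12 differed by 0.377. Heterozygous culture 18 was about as far from cultures 10 and 12, at 0.486 and 0.442, and its distance to culture 16 was the widest of all, at 0.515. Calls that change without culture 16 are given both ways.

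Together the 39 genes took 0.497%, 0.533% and 0.524% of all TPM in heterozygous cultures 11, 15 and 18, and 0.531%, 0.569% and 0.521% in wild-type cultures 10, 12 and 16, so the groups overlapped. Cd63, a tetraspanin of late endosomes and lysosomes, was the most abundant, and Idua, which cuts iduronic acid from glycosaminoglycans, the least. Means over the 6 libraries were 839 ± 47 TPM for Cd63 and 6.96 ± 1.00 TPM for Idua (SD, n = 6). In the order of mean levels, 17 of 38 neighbouring genes differed by more than the larger of their SDs and 21 did not. In all, 16 genes reached 100 TPM and 8 lay under 20 TPM.

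**Figure D1:**
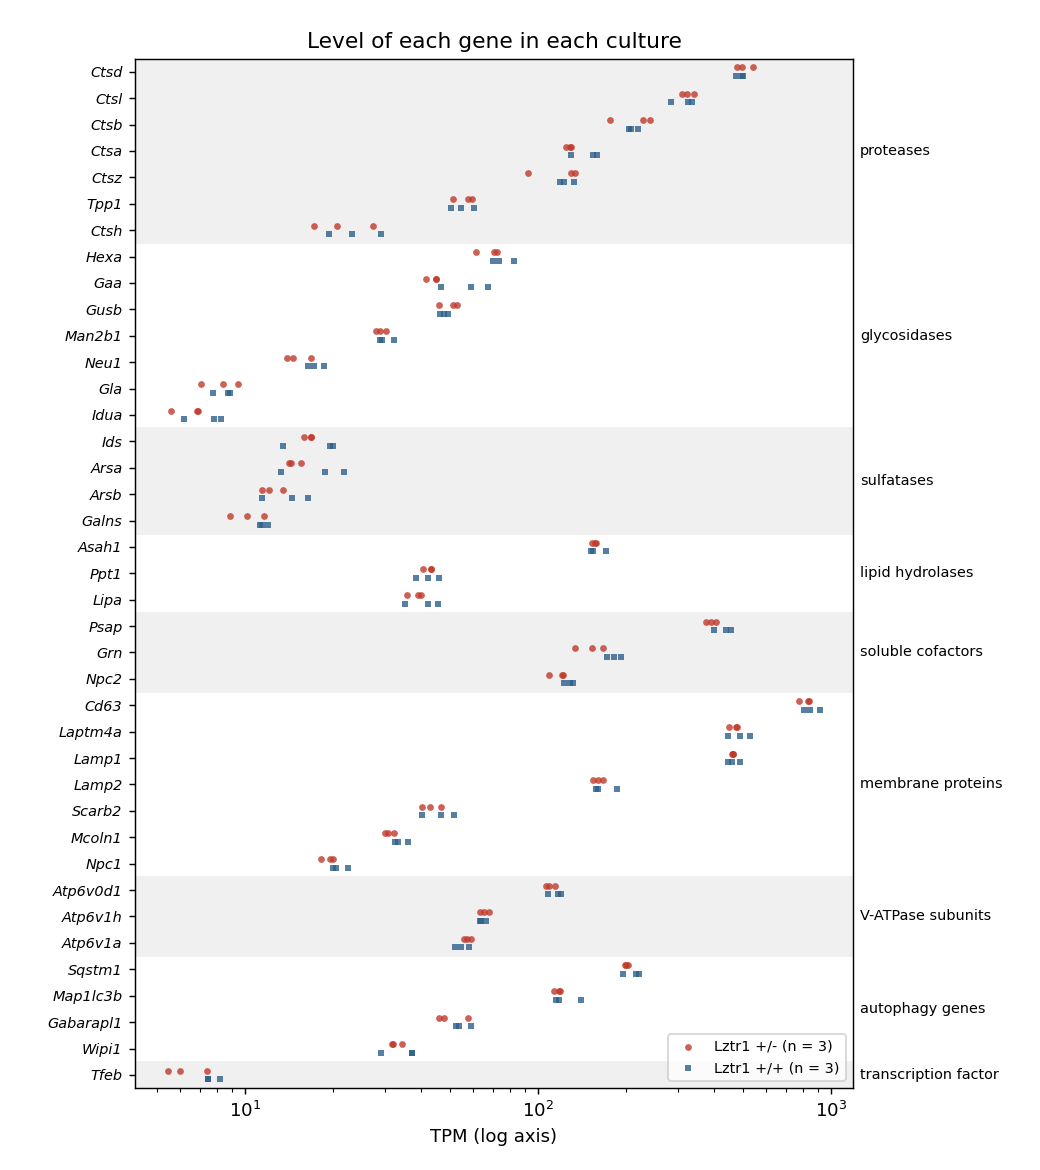
TPM of each gene (log axis) in the 3 Lztr1 +/- cultures (red circles) and the 3 Lztr1 +/+ cultures (blue squares), ordered by class and level, with one point per culture. Points of the genotypes lie close together from Cd63 (839 TPM on average) to Idua (6.96 TPM), and the 4 sulfatases have the lowest summed level of the enzyme classes.

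By class, membrane proteins summed to 2002 ± 36.9 TPM in heterozygous and 2079 ± 79 TPM in wild-type cultures (SD, n = 3 each). Proteases summed to 1370 ± 103 TPM in heterozygous and 1369 ± 62.5 TPM in wild-type cultures. Soluble cofactors came next, at 658.3 ± 37.2 TPM in heterozygous and 739.9 ± 44.4 TPM in wild-type cultures. The sulfatases, which remove sulfate from glycosaminoglycans and sulfolipids, were the scarcest class of enzymes, with 53.67 ± 2.19 TPM in heterozygous and 61.19 ± 9.93 TPM in wild-type cultures. The 7 glycosidases together had 220.9 ± 11.2 TPM in heterozygous and 244.5 ± 20.2 TPM in wild-type cultures, less than Ctsd alone.

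Between the genotypes no gene of the 39 passed the test. A gene was called at an adjusted p under 0.05 in edgeR's quasi-likelihood test over all 14652 genes, and 0.00683% of those were called, namely Lztr1 alone (log2 difference -1.01, SE 0.066, adjusted p = 0.00457), whose call was lost on leaving out any 1 culture other than wild-type 16, with an adjusted p of up to 0.0759. DESeq2 also called 0 of the 30 members to which it gave an adjusted p. It called 0.764% of all 14652 genes, 0.307% on the lower side. Genes without an adjusted p count there as not called, so the shares among genes that had one are higher. At an unadjusted p under 0.05 by edgeR stood 3 of 39, all lower in heterozygous cultures, while 12.2% of all genes did so in either direction and 6.65% on the lower side. A share of 3 in 39 is near that background. The 3 genes were Ctsa, Gaa and Grn. The 95% confidence interval of the ratio of genotypes lay within 1.5-fold in either direction for 37 of 39 genes, the exceptions being Arsa and Tfeb, whose intervals reached down to 65.6% and 66.6%. These intervals are not adjusted for the number of genes. Leaving out 1 culture moved the log2 difference by over 1.5 times in 35 of 39 genes, and Ctsa, Gaa, Neu1 and Psap were the 4 that it did not. At an unadjusted p under 0.05, 5 genes were lower with library totals alone, against 8.43% of all genes. With the run of culture numbers as a term 5 were lower, against 5.77%, and with the sex of the culture as a term 5, against 5.43%. By Y-linked counts, heterozygous cultures 15 and 18 and wild-type culture 12 were male. Heterozygous culture 11 and wild-type cultures 10 and 16 were female, so sex was not balanced between the genotypes.

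Most of the estimates lay on the lower side. The mean was lower in heterozygous cultures for 29 of 39 genes, with a median log2 difference of -0.06, against 50.4% of all tested genes and a median of -0.002. The members' log2 differences ran from -0.35 to 0.09. Averaged over the 39 genes, log2 CPM relative to the wild-type mean was -0.143, -0.023 and -0.052 in heterozygous cultures 11, 15 and 18, against -0.035, 0.05 and -0.015 in wild-type cultures 10, 12 and 16. Heterozygous culture 15 thus lay inside the wild-type range, and culture 11 lay farthest below it. The genes share libraries and vary together, so the count of 29 has no test here. The labels name no batch, but culture numbers fall into the runs 10 to 12 and 15 to 18. Within the first run 32 genes were lower in the heterozygous culture (median -0.12), against 50.2% of all genes (median -0.0014). Within the second 20 were lower (median -0.015), near the 51.9% of all genes (median -0.01). In both runs 18 were lower. Cultures 11 and 16 were also registered later than the others. In the first block registered 26 genes were lower (median -0.06), against 51.3% of all genes (median -0.0076). In the later one, with 1 culture per genotype, 30 were (median -0.10), against 51.8% of all genes (median -0.0086). Culture 11 was the only heterozygous culture of both the first run and the later block, so these sets are not independent.

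**Figure D2:**
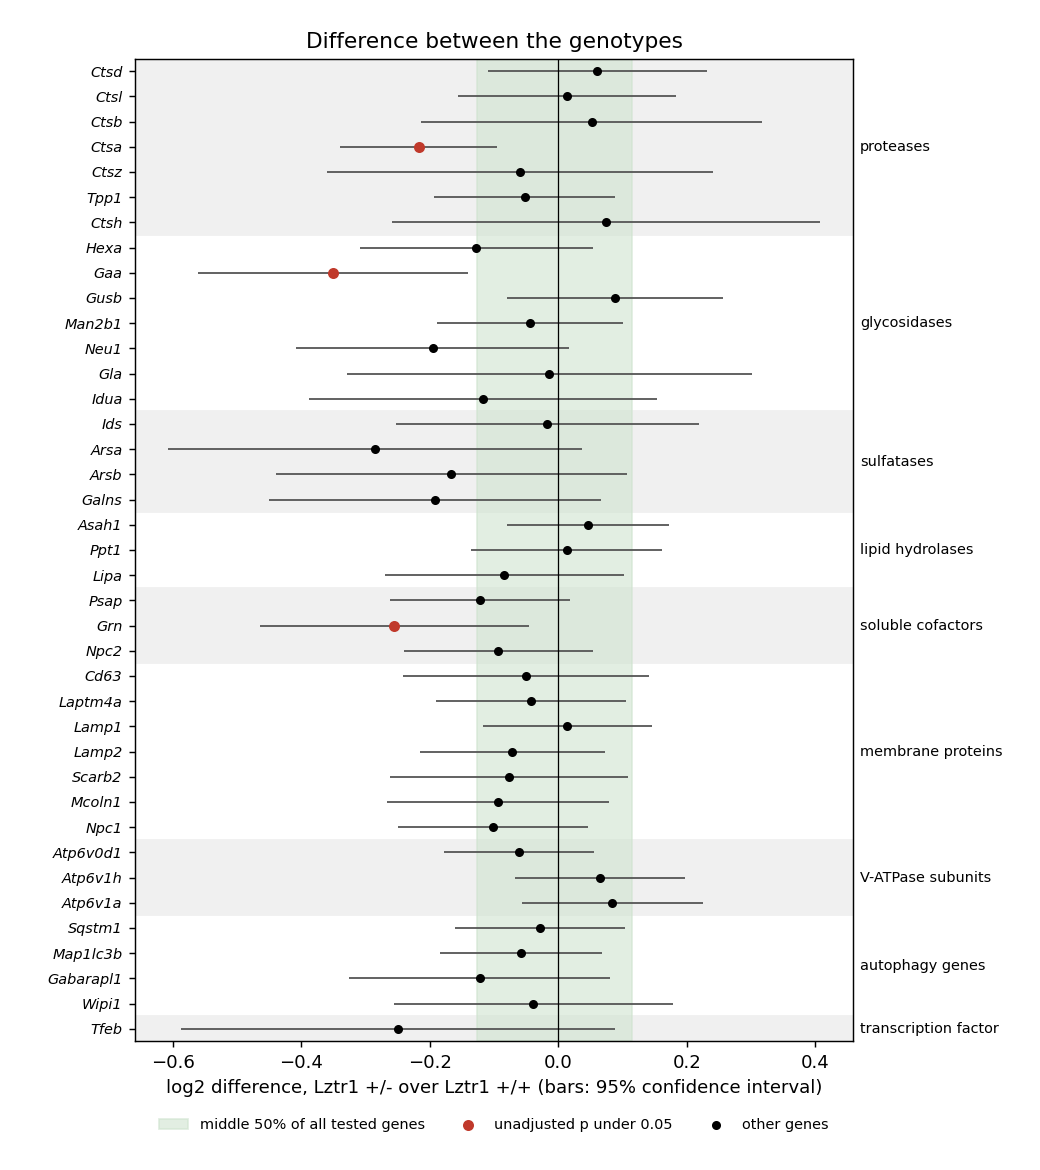
Log2 difference of each gene, Lztr1 +/- over Lztr1 +/+ (points, edgeR, n = 3 each), with its 95% confidence interval. Most points lie within the middle 50% of all tested genes (-0.13 to 0.11, green), and 3 genes with an unadjusted p under 0.05 (red) are all on the lower side, none of them past the adjusted threshold.

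Among the proteases, Ctsa (ENSMUSG00000017760.15, chr2:164832873-164841032 in mm10, plus strand) had the smallest p of the 39 genes. CTSA, or protective protein, is a serine carboxypeptidase that also stabilises the neuraminidase NEU1 and beta-galactosidase in a complex. Ctsa measured 130, 135 and 133 CPM in heterozygous cultures 11, 15 and 18, against 147, 160 and 155 CPM in wild-type cultures 10, 12 and 16. The groups did not overlap and the heterozygous cultures were tightly grouped. The mean was 133 ± 2.73 CPM in heterozygous and 154 ± 6.34 CPM in wild-type cultures (SD, n = 3 each). Ctsa thus differed by -0.22 in log2 units (SE 0.053). Its adjusted p was 0.313 by edgeR and 0.097 by DESeq2. In TPM the heterozygous cultures had 129, 125 and 129 and the wild-type cultures 154, 159 and 130.04, so wild-type culture 16 was close to the heterozygous level on that scale. Within the culture number runs the log2 difference was -0.24 and -0.21. Overlap with Pltp and Neurl2 on the opposite strand leaves the count of Ctsa uncertain, since no source used here gives the strand setting of the counting.

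The aspartic protease gene Ctsd was the most abundant protease, with 566, 655 and 585 CPM in heterozygous cultures and 551, 569 and 612 CPM in wild-type cultures. The groups overlapped, at a log2 difference of 0.06 (SE 0.074, adjusted p = 0.767 by edgeR). Ctsl and Ctsb, cysteine proteases with broad substrates, averaged 325 ± 14.3 and 215 ± 34.5 TPM in heterozygous cultures and 315 ± 26.8 and 210 ± 8.03 TPM in wild-type cultures. Their log2 differences were 0.01 (SE 0.0735) and 0.05 (SE 0.115). Ctsz, a carboxypeptidase, differed by -0.06 (SE 0.13). The aminopeptidase gene Ctsh had 12, 15.2 and 15.3 CPM in heterozygous and 11.7, 13.3 and 15.2 CPM in wild-type cultures, a log2 difference of 0.07 (SE 0.14). In TPM the sign of Ctsh was the other way, at 21.7 ± 5.17 in heterozygous and 23.9 ± 4.97 in wild-type cultures (SD, n = 3 each). Tpp1, a tripeptidyl peptidase, differed by -0.05 (SE 0.061) in CPM, and its sign also turned in TPM, at 56.1 ± 4.3 in heterozygous and 55.1 ± 4.92 in wild-type cultures. Of the 7 proteases 3 had a lower and 4 a higher mean, with a median of 0.01.

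Glycosidases, which trim sugar chains from glycogen, glycolipids and glycoproteins, included the largest estimate of the 39. Gaa (ENSMUSG00000025579.14, chr11:119267887-119285454 in mm10, plus strand) encodes the acid alpha-glucosidase that breaks down glycogen in lysosomes. It had 90.5, 91.3 and 82 CPM in heterozygous cultures 11, 15 and 18, against 115, 124 and 97.8 CPM in wild-type cultures 10, 12 and 16. The groups did not overlap, though wild-type culture 16 was nearer to the heterozygous cultures than to the other wild-type cultures. The means were 87.9 ± 5.17 CPM in heterozygous and 112 ± 13.3 CPM in wild-type cultures (SD, n = 3 each), so heterozygous cultures stood at 78.4% of the wild-type level with a 95% confidence interval of 67.8% to 90.7%. This is -0.35 on the log2 scale (SE 0.091). The adjusted p was 0.313 by edgeR and 0.06 by DESeq2. Cultures 10 to 12 alone gave a log2 difference of -0.40 for Gaa, and 15 to 18 alone gave -0.18. Without wild-type culture 16 the difference was -0.44 and passed, at an adjusted p of 0.0132 by edgeR, where all its alternatives gave 0.0131 to 0.773.

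Neu1, the sialidase that CTSA stabilises, measured 20.7, 21.7 and 24.5 CPM in heterozygous cultures, against 24.0, 25.8 and 26.5 CPM in wild-type cultures. The groups overlapped in heterozygous culture 18 alone, and the log2 difference was -0.20 (SE 0.092, adjusted p = 0.436 by edgeR). Gusb, the beta-glucuronidase, had the largest positive estimate of the 39, with 64.7, 75.8 and 70.0 CPM in heterozygous and 63.6, 65.1 and 69.1 CPM in wild-type cultures. Its groups overlapped and it differed by 0.09 (SE 0.073, adjusted p = 0.637 by edgeR). Hexa, the alpha subunit of beta-hexosaminidase, differed by -0.13 (SE 0.079), Idua by -0.12 (SE 0.12), the alpha-mannosidase gene Man2b1 by -0.04 (SE 0.063) and Gla, the alpha-galactosidase A gene on the X chromosome, by -0.01 (SE 0.14). Hexa was -0.05 without heterozygous culture 11, and Idua -0.03 without wild-type culture 16. In this class 6 of 7 genes had a lower mean, with a median of -0.12.

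All 4 sulfatases had a lower mean in heterozygous cultures, with a median of -0.18, and none was called. Arsa (ENSMUSG00000022620.14, chr15:89472476-89477425 in mm10, minus strand) encodes the enzyme that removes sulfate from sulfatide. It had 23.8, 25.1 and 23.3 CPM in heterozygous cultures, against 30.4, 34.7 and 22.9 CPM in wild-type cultures 10, 12 and 16. Wild-type culture 16 was the lowest of all 6, so the groups overlapped, and the log2 difference was -0.29 (SE 0.14, adjusted p = 0.450 by edgeR). Within cultures 10 to 12 it was -0.45, and within 15 to 18 it had the other sign, 0.08. Without wild-type culture 16 it was -0.43, with an adjusted p of 0.0342 by edgeR, where the alternatives with an adjusted p gave 0.0342 to 0.808. Without wild-type culture 12 it was -0.15. Galns, a sulfatase of keratan sulfate, differed by -0.19 (SE 0.11), Arsb, a sulfatase of dermatan sulfate, by -0.17 (SE 0.12), and the X-linked Ids, the iduronate sulfatase, by -0.02 (SE 0.10). Arsb ran from -0.265 without wild-type culture 16 to -0.07 without wild-type culture 12. Arsb and Ids also had their lowest wild-type value in culture 16, at 27.9 and 41.0 CPM. With that culture left out edgeR called 2 of the 39 genes, Gaa and Arsa, both lower, against 5.93% of the genes tested there, 2.24% on the lower side. At an unadjusted p under 0.05 that fit held 6 of 39, against 23.6% of all genes in either direction. All 6 were lower, against 11.1% of all genes on that side. The first registered block alone called the same 2 genes, against 9.83% of all genes and 4.39% on the lower side. It held 6 of 39 at an unadjusted p under 0.05, against 27.4% of all genes, with 4 lower and Ctsb and Gusb higher. Wild-type cultures 10 and 12, which then stand alone, belong to 1 run of culture numbers and 1 block of registration. Summed over 12 genes, fibroblast markers had 10800, 12040 and 11510 TPM in heterozygous cultures 11, 15 and 18, against 13370, 13320 and 11260 TPM in wild-type cultures 10, 12 and 16. Of these 12 markers 0 were called with all 6 cultures and 6 without culture 16. Col1a1, Col1a2, Col3a1, Dcn and Lum were then lower in heterozygous cultures, and Vim was higher. The 13 erythroid markers summed to 255.1, 443.4 and 509.7 TPM in heterozygous cultures, against 161.2, 127.7 and 443.1 TPM in wild-type cultures, where culture 16 again stood with the heterozygous ones. Of the 13 erythroid markers 8 passed the filter with all 6 cultures, and 0 were called. Without culture 16 edgeR called 3, Hba-a1, Hba-a2 and Hbb-y, all higher in heterozygous cultures. Not every erythroid marker followed the sums, and Klf1 was highest in wild-type culture 12, at 0.79 TPM. The part of either set of markers in the values of Gaa and Arsa was not tested.

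**Figure D3:**
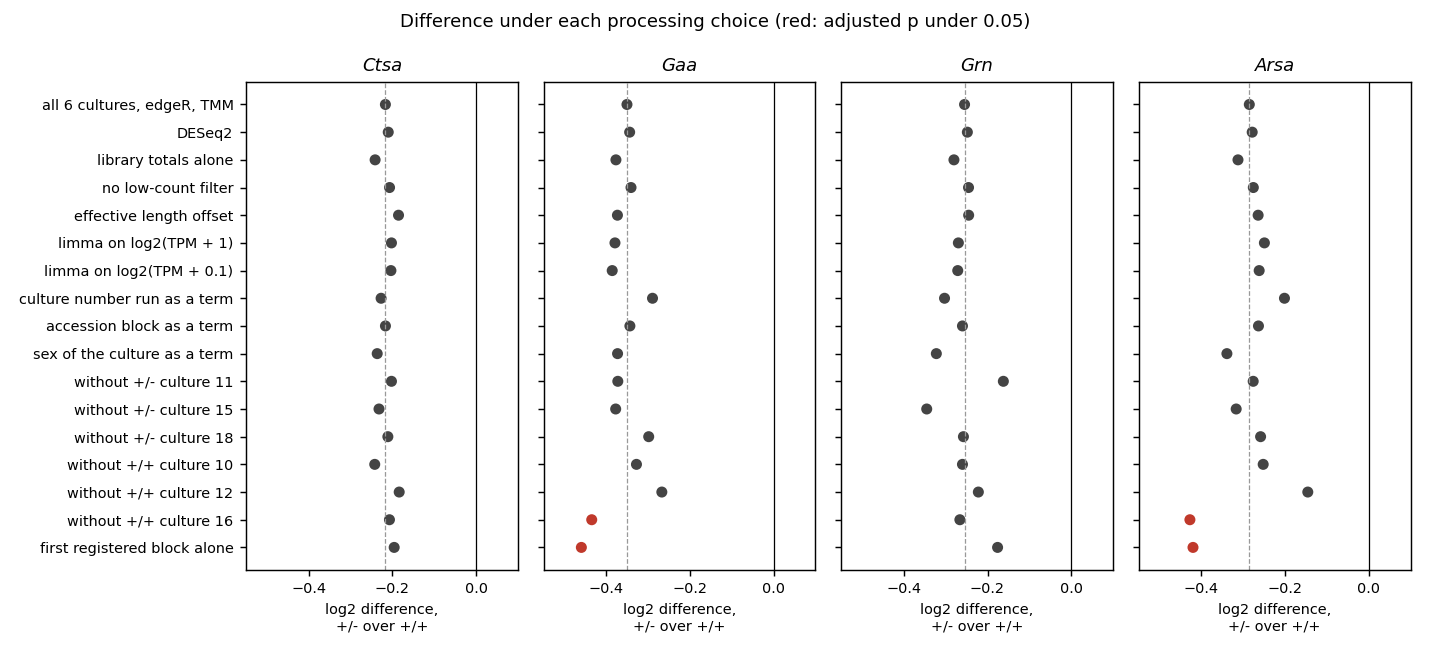
Log2 difference of Ctsa, Gaa, Grn and Arsa (points), Lztr1 +/- over Lztr1 +/+, in the fit of all 6 cultures (top row, dashed line) and under each other processing choice. Every value is below 0, and an adjusted p under 0.05 (red) was reached by Gaa and Arsa, in the fit without wild-type culture 16 and in that of the first registered block.

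Of the lipid hydrolases 1 had a lower and 2 a higher mean. Asah1, the acid ceramidase, had 227, 234 and 229 CPM in heterozygous and 212, 231 and 225 CPM in wild-type cultures, a log2 difference of 0.05 (SE 0.055, adjusted p = 0.759 by edgeR). In TPM its means were 156 ± 2.64 in heterozygous and 159 ± 10.7 in wild-type cultures, so its sign turned in TPM. Lipa, the acid lipase of cholesteryl esters and triglycerides, differed by -0.08 (SE 0.081) and Ppt1, which removes palmitate from proteins, by 0.01 (SE 0.0645). Lipa ran from -0.15 without wild-type culture 16 to -0.02 without wild-type culture 12.

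The soluble cofactors were lower in mean as a class, 3 of 3, with a median of -0.12. Grn (ENSMUSG00000034708.11, chr11:102430315-102437048 in mm10, plus strand) encodes progranulin, a secreted and lysosomal protein that is processed to granulins. It measured 167, 216 and 194 CPM in heterozygous cultures 11, 15 and 18, against 226, 238 and 225 CPM in wild-type cultures 10, 12 and 16. The groups did not overlap, and the heterozygous cultures spread more widely than the wild-type ones, at 192 ± 24.3 CPM against 229 ± 7.31 CPM (SD, n = 3 each). The log2 difference was -0.26 (SE 0.091, adjusted p = 0.353 by edgeR), and it was -0.16 without heterozygous culture 11. Within the runs it was -0.47 and -0.14. Fam171a2 overlaps Grn on the opposite strand, so the count of Grn carries the same uncertainty as that of Ctsa. Psap, the precursor of the saposins that present sphingolipids to their hydrolases, had 566, 624 and 579 CPM in heterozygous and 647, 659 and 619 CPM in wild-type cultures. The groups overlapped by heterozygous culture 15, and the log2 difference was -0.12 (SE 0.061, adjusted p = 0.459 by edgeR). Npc2, a carrier of cholesterol in the lumen, differed by -0.09 (SE 0.064), or -0.04 without heterozygous culture 11.

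Heterozygous culture 11, the most deeply sequenced, was the lowest of the 6 in CPM for 18 of the 39 genes, while it was the lowest for 12.4% of all tested genes. Ctsz had 70.6 CPM there, 69.9% of the mean of heterozygous cultures 15 and 18, and Ctsb had 493 CPM, or 74.6%. Grn stood at 81.5% and Hexa at 84.9%, while Ctsa stood at 97.0%. Fdft1 (73.3 TPM) overlaps Ctsb and Nelfcd (41.7 TPM) overlaps Ctsz, both on the opposite strand. The counts of Ctsb and Ctsz thus carry the same uncertainty as that of Ctsa. On the TPM scale macrophage markers were also lowest in culture 11, for 17 of the 18 genes. Their summed CPM was 267.5, 498 and 482.7 in heterozygous cultures 11, 15 and 18, against 348.5, 327.5 and 458.5 in wild-type cultures 10, 12 and 16. None of the defining markers Csf1r, Adgre1, Ptprc, Tyrobp and C1qa was at 0. In TPM, Csf1r had 11.2, 18.6 and 21.9 in heterozygous and 14.9, 12.3 and 18.2 in wild-type cultures. The part of these markers in the lysosomal values of culture 11 was not tested. Without culture 11 the median log2 difference of the 39 genes was -0.04, with 27 lower, against 51.2% of all genes (median -0.0052). At the other end, wild-type culture 12 was the highest of the 6 for 20 genes and the lowest for 0, against 20.4% and 19.6% of all tested genes. Leaving out culture 12 moved the median further than leaving out culture 11, to -0.02. There 24 genes were lower, against 48.8% of all genes (median 0.0047).

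**Figure D4:**
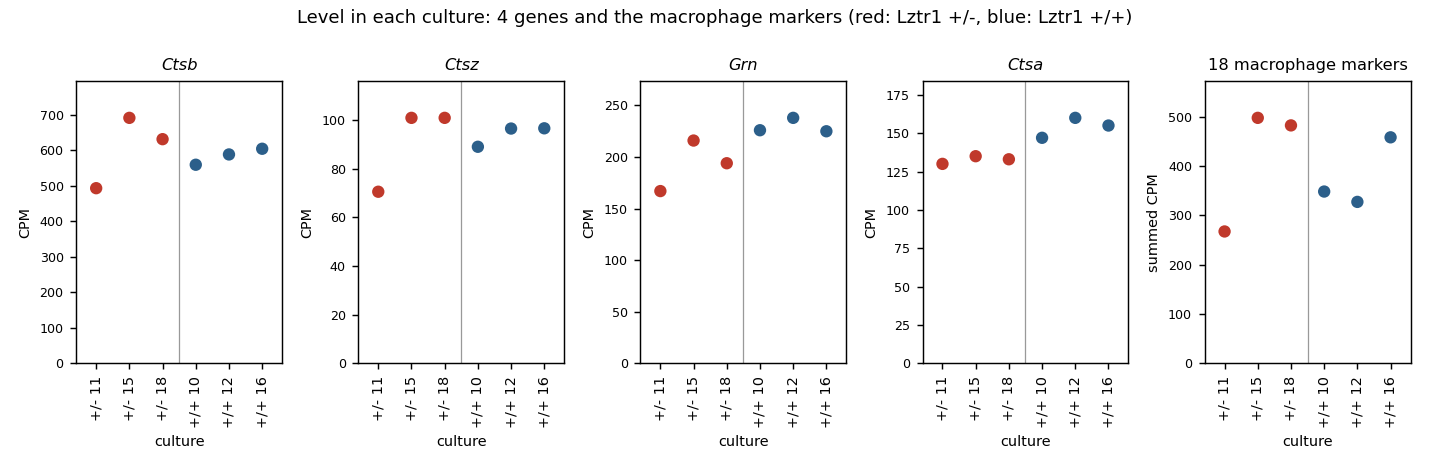
CPM of Ctsb, Ctsz, Grn and Ctsa, and summed CPM of 18 macrophage markers, in each Lztr1 +/- culture (red) and Lztr1 +/+ culture (blue), with one point per culture. Culture 11 is the lowest for Ctsb (493), Ctsz (70.6), Grn (167) and the markers (267.5), while Ctsa is near 130 in all heterozygous cultures.

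Of the membrane proteins 6 of 7 had a lower mean, with a median of -0.07. Lamp1, a major glycoprotein of the lysosomal membrane and the gene with 4 promoter cores, had 579, 589 and 569 CPM in heterozygous and 544, 584 and 592 CPM in wild-type cultures, a log2 difference of 0.01 (SE 0.057). In TPM its means were 462 ± 1.39 in heterozygous and 464 ± 22.5 in wild-type cultures (SD, n = 3 each), so its sign turned there. Lamp2, its X-linked relative that is required for fusion of autophagosomes with lysosomes, differed by -0.07 (SE 0.063). Scarb2, the receptor that carries glucocerebrosidase to lysosomes, differed by -0.08 (SE 0.0805), Laptm4a, a late endosomal and lysosomal membrane protein, by -0.04 (SE 0.064) and Cd63 by -0.05 (SE 0.083). Scarb2 ran from -0.14 without wild-type culture 16 to -0.01 without wild-type culture 12. Npc1, which passes cholesterol out of the lysosome together with NPC2, had 62.1, 61.6 and 55.9 CPM in heterozygous and 62.2, 66.7 and 64.1 CPM in wild-type cultures. Its groups did not overlap in CPM, where heterozygous culture 11 and wild-type culture 10 were nearly level, and they did overlap in TPM, at 20.04, 19.5 and 18.2 in heterozygous and 20.5, 22.5 and 19.96 in wild-type cultures. Its log2 difference was -0.10 (SE 0.064, adjusted p = 0.541 by edgeR). Mcoln1, a calcium-permeable channel of the lysosomal membrane, differed by -0.09 (SE 0.075).

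With Ctsa, Gaa and Grn, Npc1 made up the 4 genes of 39 whose heterozygous cultures all lay below all wild-type cultures, where 9.97% of all tested genes did so. None of the 39 lay above, against 7.75% of all tested genes.

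The V-ATPase subunits summed to 232.9 ± 4.65 TPM in heterozygous and 234.6 ± 8.94 TPM in wild-type cultures (SD, n = 3 each). Atp6v1a, the catalytic subunit, had 138, 136 and 137 CPM in heterozygous and 119, 133 and 136 CPM in wild-type cultures. Wild-type culture 10 was lower than the rest, and heterozygous culture 15 met wild-type culture 16, at a log2 difference of 0.08 (SE 0.061, adjusted p = 0.597 by edgeR). Atp6v1h, a regulatory subunit, had 67.3, 71.1 and 71.9 CPM in heterozygous and 64.2, 67.8 and 68.9 CPM in wild-type cultures. The groups overlapped, at a log2 difference of 0.06 (SE 0.0575, adjusted p = 0.668 by edgeR). Atp6v0d1, a subunit of the membrane sector, differed by -0.06 (SE 0.051).

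Autophagy genes had a median of -0.05, with 4 of 4 lower in mean. Sqstm1, the cargo receptor p62, averaged 229 ± 4.78 CPM in heterozygous and 233 ± 11.6 CPM in wild-type cultures, a log2 difference of -0.03 (SE 0.058). Map1lc3b and Gabarapl1, whose products are conjugated to lipid on the autophagosome, differed by -0.06 (SE 0.055) and -0.12 (SE 0.088). Gabarapl1 ran from -0.21 without heterozygous culture 18 to -0.06 without heterozygous culture 11. Wipi1, which binds phosphoinositides at forming autophagosomes, differed by -0.04 (SE 0.094). Tfeb itself was scarce, at 6.00, 5.45 and 7.42 TPM in heterozygous and 7.49, 8.24 and 7.46 TPM in wild-type cultures. The groups did not overlap in TPM, but in CPM they did, with 7.88, 6.72 and 9.06 in heterozygous and 9.52, 9.72 and 8.79 in wild-type cultures. The log2 difference was -0.25 (SE 0.15, adjusted p = 0.517 by edgeR), and it ran from -0.34 without heterozygous culture 18 to -0.15 without heterozygous culture 15.

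**Figure D5:**
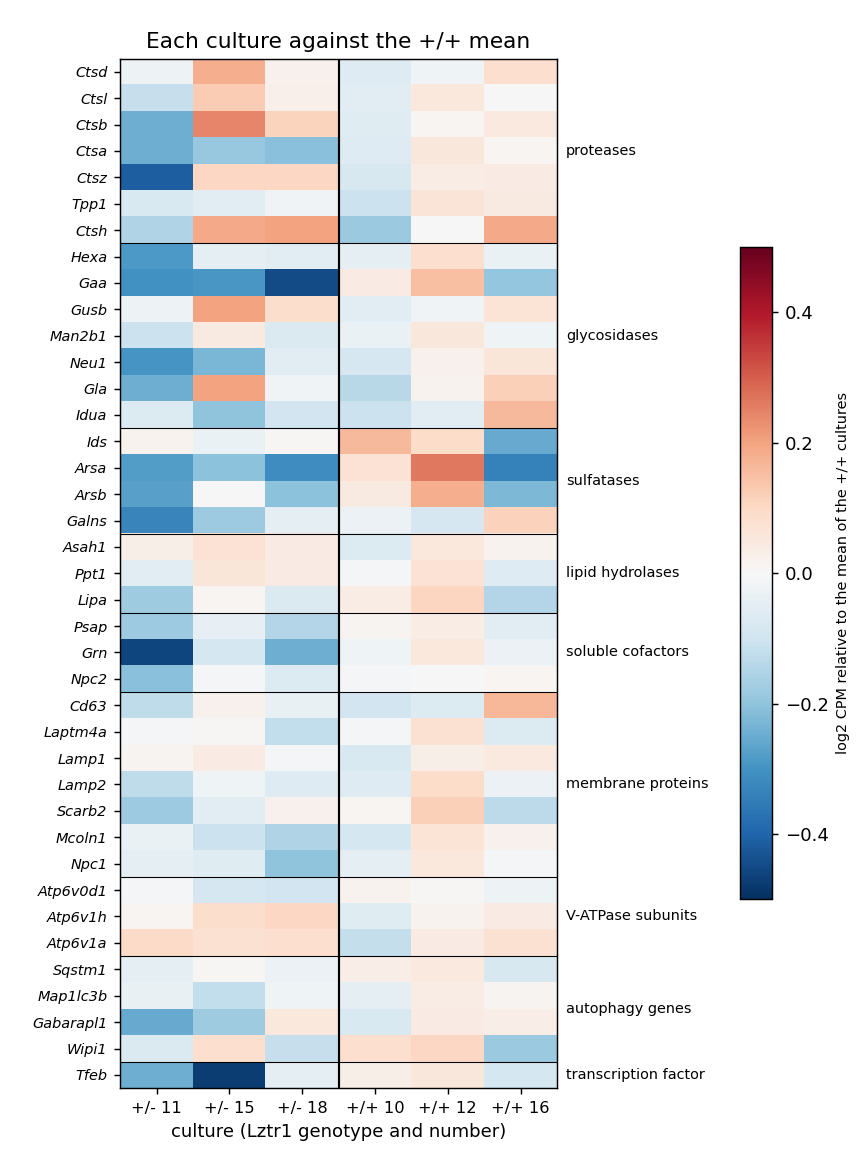
Log2 CPM of each gene (rows, by class) in each culture (columns) relative to the mean of the Lztr1 +/+ cultures. Culture 11 is lowest in 18 of 39 genes and culture 12 highest in 20, and Gaa and Ctsa are lower in all 3 Lztr1 +/- cultures.

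The 10 genes with the CACGTG core in the promoter had log2 differences from -0.35 (Gaa) to 0.08 (Atp6v1a), with a median of -0.04 and 6 lower, while those of the 23 genes without it in this window ran from -0.26 (Grn) to 0.09 (Gusb) with a median of -0.07 and 21 lower. Ctsa and Gaa carried the core, and so did Ctsd and Lamp1, whose log2 differences were 0.06 and 0.01.

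Distances between libraries over the 39 genes overlapped within and between genotypes. The root mean square log2 difference was 0.129 to 0.201 among heterozygous cultures, 0.105 to 0.183 among wild-type cultures and 0.119 to 0.247 between the genotypes, over 15 pairs in all. The closest pair was wild-type cultures 10 and 12 and the farthest heterozygous culture 11 and wild-type culture 12. Over all genes these distances were wider, from 0.366 to 0.515. The median SD of log2 CPM over the 6 libraries was 0.11 for the 39 genes and 0.15 for all tested genes.

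Other genes of the same pathways were examined in 6 lists with 144 genes, and edgeR and DESeq2 each called 0 of them. Without wild-type culture 16 edgeR called 3, against 5.93% of the genes tested there, 2.24% on the lower side. Tpcn1 and Gga2 were then lower and Vmp1 higher. At an unadjusted p under 0.05 by edgeR were 17 lower and 4 higher, against 6.65% lower and 5.56% higher of all genes. Of 31 other hydrolases and cofactors 7 were lower at that level and 0 higher, with a median of -0.07. Gm2a, the ganglioside activator gene, differed by -0.39 (SE 0.14). Of 25 other membrane proteins 4 were lower and 0 higher, with a median of -0.11. The cystine exporter gene Ctns differed by -0.41 (SE 0.10), Glmp by -0.24 (SE 0.060) and the ion channel gene Tmem175 by -0.38 (SE 0.10), each with an adjusted p of 0.313 by edgeR.

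Of 15 other V-ATPase subunits 2 were lower and 0 higher, with Tcirg1 at -0.17 (SE 0.059) and Atp6v1g1 at -0.13 (SE 0.054). In TPM the sign of Tcirg1 turned, at 57.8 ± 3.91 in heterozygous and 56.7 ± 0.713 in wild-type cultures (SD, n = 3 each). Of 39 other autophagy genes 2 were lower and 2 higher, with a median of -0.0007, close to that of all genes. The cargo receptor gene Optn differed by -0.41 (SE 0.14), Calcoco1 by -0.30 (SE 0.096) and Wdfy3 by 0.14 (SE 0.053). Of 13 genes that sort enzymes to lysosomes 1 was lower, the adaptor gene Gga1 (-0.18, SE 0.076), and 1 higher, the retromer subunit gene Vps35 (0.14, SE 0.056). Of 21 genes of TFEB relatives and mTORC1 control 1 was lower, Lamtor4 (-0.26, SE 0.10), and 1 higher, Mtor, the kinase that holds TFEB in the cytoplasm (0.24, SE 0.099). In TPM the sign of Mtor turned, at 13.6 ± 1.45 in heterozygous and 14 ± 2.16 in wild-type cultures (SD, n = 3 each).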

How the data were processed

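Per the file headers, the authors deposited RSEM gene-level estimates, 1 table for each library. The submitters' processing notes name RSEM 1.3.1, DESeq2 and build mm10. No source used here gives the aligner, the annotation release or the strand setting. The deposited expected counts are estimated reads per gene, in which a read that matches several genes is shared. Levels, and a pair of alternative tests, used the deposited TPM values. The deposited FPKM values were not used. Effective gene lengths from the same tables served as an offset in 1 alternative.

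Symbols were matched by Ensembl number, for 51633 of 51826 genes. Positions are mm10, from the GENCODE annotation. Of the 39 genes, 11 overlap another gene that averaged above 1 TPM, and their counts are uncertain where strand was not used. The most abundant of these other genes was Cap1, opposite Ppt1, at 268 TPM. Map1lc3b overlaps Gm20388 (30.2 TPM) on the same strand, so its count is uncertain under either strand setting. Expected counts were rounded, filtered with filterByExpr and scaled with TMM factors. Genotypes were compared, heterozygous over wild-type and without covariates, by the quasi-likelihood test of edgeR 4.0.16 (R 4.3.3). P-values were adjusted by Benjamini-Hochberg over 14652 genes. SE is the standard error of the log2 difference, taken as its absolute value divided by the square root of the F statistic of that test. Confidence intervals are at 95% and were built from this SE. Alternatives used DESeq2 1.42.0 and limma 3.58.1. Values within runs and blocks are differences of mean log2 CPM with a prior count of 2. The steps were tested on simulated counts, with changes larger than any difference among the 39 genes. That test therefore does not show whether differences of their size would be recovered.

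The 39 genes, the lists, the runs and the blocks were chosen with earlier results of these data known. All 39 genes are named. Given in every library are the smallest p in each direction, up to 6 each way, and genes whose groups do not overlap, and besides these Lamp1 and Tfeb, which were added after their values were seen. Other lists name up to 3 genes of smallest p. Some genes that this rule names are not reported here. Promoters are RefSeq's, of build GRCm38.p6.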

Additional observations from a re-analysis of the deposited data

How the results depend on the processing

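No paired analysis was possible because the genotypes share no culture number. Under 16 alternatives the 39 genes gave 624 log2 differences, of which 45 changed sign, in 15 genes, and 24 genes kept theirs throughout. The median over the 39 genes stayed below 0 in every alternative run, from -0.0872 to -0.0234 when 1 culture was left out. With all 6 cultures, 0 genes were called under every tool, scaling and added term. The first registered block alone called 2, Gaa and Arsa, and leaving out 1 culture called 0 to 2, the 2 being the same genes without wild-type culture 16. At an unadjusted p under 0.05, against 3, there were 5 with library totals alone, 5 with the run as a term and 5 with the sex of the culture (from Y-linked counts) as a term. All of these were lower, against 8.43%, 5.77% and 5.43% of all genes on that side. The first block held 6 (4 of them lower), against 27.4% of all genes. With 1 culture left out there were 2 to 6, the 6 being without wild-type culture 16, against 23.6% of all genes. Lztr1 no longer passed with effective lengths (-0.9131, adjusted p 0.0852 by edgeR) or by limma on log2(TPM + 1) (-0.9189) or log2(TPM + 0.1) (-0.938), and was -1.0593 to -0.9729 with 1 culture left out, passing in that of wild-type culture 16 alone. The cause was not tested for any of these.

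The signs that turned were these. With library totals alone, which moved the median of all genes to -0.0264, Lamp1 was -0.0098, Ppt1 -0.0121 and Ctsl -0.0112. With effective lengths Tpp1 was 0.0476, Asah1 -0.0045 and Ctsh -0.1254. On log2(TPM + 1) Tpp1 was 0.0268, Asah1 -0.0244, Ctsh -0.1393 and Lamp1 -0.0045, and on log2(TPM + 0.1) they were 0.0272, -0.0246, -0.1452 and -0.0045. With the run as a term Ctsh was -0.0282, Ctsb -0.0435, Ctsl -0.0216 and Ids 0.052. With sex as a term Ctsb was -0.0343, Ppt1 -0.0215 and Ctsl -0.0341. In the first block Cd63 was 0.077, Ctsz 0.1176 and Gla 0.1601. With 1 culture left out, Ctsd ran from -0.004 to 0.1077, Laptm4a from -0.0725 to 0.0028, Cd63 from -0.0909 to 0.0409, Ctsh from -0.0108 to 0.1898, Sqstm1 from -0.0649 to 0.0032, Ctsz from -0.1438 to 0.0974, Gla from -0.1335 to 0.0994, Ctsb from -0.0543 to 0.1796, Ppt1 from -0.0147 to 0.0554, Ctsl from -0.0464 to 0.0757, Wipi1 from -0.1203 to 0.0158, Ids from -0.1262 to 0.0722 and Lamp1 from -0.0148 to 0.0413. Depth was at least 95 counts for every one of the 39 genes, and the median SE was 0.0748. Tfeb, with the fewest counts (95 to 171), had an SE of 0.1468. The parts of depth and of the spread between cultures in these SEs were not tested.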
